A study of Mus musculus with 6 samples.

Results

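Adhesion G protein-coupled receptors (adhesion GPCRs) were followed in the RNA of mouse 3T3 fibroblasts with and without induction of human PARG (hPARG), the enzyme that removes poly(ADP-ribose) chains. The 10 genes described here were taken by name from the 41819 genes of the deposited table. They are Adgrg1, Adgrg2, Adgrg6, Adgra2, Adgra3, Adgrl1, Adgrl2, Adgrl4, Adgre5 and Adgrd1. The set was chosen by family name around Adgrg1, and Adgrg1 itself was selected on its measured counts, since its difference between induced and not induced cells was already known. The contrast for these 10 genes is therefore given as a description, without p-values, and no support is drawn from it.

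By the paper's RNA-seq methods, the induced and the not induced state of 1 puromycin-resistant 3T3 clone were compared. By these methods every sample, control included, carried the lentiviral TetOne cassette with hPARG and was grown with 2.5 µg/ml puromycin. The paper's description of the vector adds the fluorescent protein mClover3, which the RNA-seq methods do not name. Elsewhere the paper calls the comparison cells non-transfected, and the sample titles say only that they were not induced. The control group (3T3 cells not induced) had 3 samples at 0 ng/ml doxycycline, and the hPARG group (3T3 cells overexpressing PARG) had 3 samples kept for 72 h at 500 ng/ml. No sequenced group received doxycycline without the cassette, so in these samples an effect of the drug and an effect of hPARG cannot be told apart. The paper also describes qPCR of selected genes in doxycycline-treated cells that lacked the construct, which was not used here. The labels describe wells of a plate and the methods describe dishes, and dish is used below. By the RNA-seq methods all dishes were split from a single clone, so the p-values measure the spread between dishes only.

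Adhesion GPCRs are cell-surface proteins with a long extracellular region, a membrane-proximal domain in which many of them cut themselves, and the membrane-spanning core common to all GPCRs. The extracellular part binds matrix proteins or proteins on neighbouring cells, and the remaining membrane part can then signal through G proteins. Adgrg1, also called GPR56, binds collagen III, couples to Gα12/13 proteins and is best known from brain cortex development and from cytotoxic lymphocytes. In fibroblasts and other adherent cells, members of the family take part in adhesion, migration and mechanosensing.

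The libraries held between 21619908 and 25263818 counts assigned to genes. A floor of 3 counts corresponded to 0.117 to 0.141 CPM (TMM-normalized counts scaled to a common library size), which covers counting error only. The 2 dishes numbered 2 stood apart from the others on the first principal component, at 21.6 and 24.7 against values from -27.4 to -3.17, so results are given below with and without them. All identifiers in the table are mouse genes, so the hPARG cassette has no row of its own. Whether hPARG reads were assigned to the mouse Parg gene was not examined here. The paper reports the induction of hPARG protein by Western blot. Of 12 fibroblast markers, 9 passed the filter on low counts and their list summed to 8002 to 8535 TPM (transcript abundance scaled by gene length) in control and 8579 to 8833 TPM in hPARG cells. The fibroblast markers Dcn, Lum and Postn were at 15 counts or fewer in every dish. Endothelial markers summed to 0.409 to 0.592 TPM in control and 0.295 to 0.35 TPM in hPARG cells, with Emcn at 0. Leukocyte markers summed to 0.172 to 0.348 and 0.116 to 0.239 TPM, with Cd3e and Adgre1 at 0. Epithelial markers summed to 0.708 to 0.948 and 0.591 to 1.05 TPM, and neural and Schwann cell markers to 12.3 to 14.1 and 12.6 to 14.2 TPM, with Sox10 at 0. The part of these marker levels in any result below was not tested.

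Adgrg1 (ENSMUSG00000031785, GRCm38 chromosome 8, 94974751 to 95014217, plus strand) has 22 blocks of exons with 5421 bases, none of which lie in exons of another gene. RefSeq gives it 2 start sites, both within the annotated gene. The letters upstream of these starts are shown because Adgrg1 is the gene around which the set was drawn up, beside those of Adgra3 and Adgrl1, which were expressed in every dish. All are RefSeq windows of build GRCm38.p6, written 5′ to 3′ on the strand of the gene, with CpG dinucleotides in capitals. Each is cut to its longest unbroken stretch outside the gene's own exons. For the upstream Adgrg1 start this is 134 of 250 bases, ending at 94976992 before the start at 94977109. That stretch holds 2 of the window's 4 CpG dinucleotides.
Adgrg1, upstream start, chr8:94976859-94976992, plus strand: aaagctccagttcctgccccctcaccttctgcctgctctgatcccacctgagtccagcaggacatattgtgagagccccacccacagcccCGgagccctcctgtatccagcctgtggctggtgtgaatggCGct
Adgrg1, downstream start, chr8:94984149-94984370, plus strand: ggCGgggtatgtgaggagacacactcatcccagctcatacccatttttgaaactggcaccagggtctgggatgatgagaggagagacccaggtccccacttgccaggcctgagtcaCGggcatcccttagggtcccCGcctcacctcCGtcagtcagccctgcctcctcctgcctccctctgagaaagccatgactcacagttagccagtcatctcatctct
Adgra3, chr5:50059007-50059246, minus strand: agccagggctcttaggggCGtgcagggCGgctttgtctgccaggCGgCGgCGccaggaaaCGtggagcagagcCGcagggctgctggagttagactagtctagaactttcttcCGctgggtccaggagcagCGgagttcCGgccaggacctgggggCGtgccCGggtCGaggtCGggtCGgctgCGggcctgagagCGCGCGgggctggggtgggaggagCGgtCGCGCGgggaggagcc
Adgrl1, chr8:83899848-83900097, plus strand: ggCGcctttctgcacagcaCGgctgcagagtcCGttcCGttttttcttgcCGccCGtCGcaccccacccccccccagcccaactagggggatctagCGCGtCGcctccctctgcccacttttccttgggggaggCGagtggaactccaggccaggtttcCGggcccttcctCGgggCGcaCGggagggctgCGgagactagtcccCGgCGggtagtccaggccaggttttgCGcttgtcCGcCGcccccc

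In the full 250 bases before each start, the Adgrg1 windows each held 4 CpG dinucleotides, against a median of 6 over 32851 promoter windows and 25 and 21 for Adgra3 and Adgrl1. Among the other members the count was 3 for Adgrl2, which was also expressed in every dish, 5 for Adgrl4, 26 for Adgrg2 and 32 for Adgrg6. The GC box (GGGCGG on either strand) was found in the windows of Adgra3, Adgrg2, Adgrg6 and Adgrl1 and in 32.7% of all windows. The TATA box (TATAAA on either strand) was found in the window of Adgrl2 alone among the 8 windows of 7 matched members, and in 12.4% of all windows. The CCAAT box (CCAAT on either strand) was found in the window of Adgrl4 and in 33.8% of all windows. Adgrg1 had none of these 3 motifs in either window. The motif and CpG counts describe letters only. The RefSeq start of Adgrl2 lies 35920 bases inside the annotated gene, and 152 of its 250 window bases lie in Adgrl2 exons. The Adgrg6 start lies 623 bases inside its gene, and all 250 bases of its window lie in Adgrg6 exons. Adgra2, Adgre5 and Adgrd1 had no entry in the promoter table used here.

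A minimum of reads was required before a gene was tested, and 6 of the 10 genes met it. The 4 genes that fell short were Adgrg2, Adgrg6, Adgrl4 and Adgrd1. Compared per length within a dish, the order of TPM levels was Adgra2, Adgra3, Adgrl1, Adgrl2 and then Adgrg1, and each step of this order held in 6 of 6 dishes. Adgrg1 and Adgre5 had no fixed order over the 6 dishes, since Adgre5 had the higher TPM in the control dishes and Adgrg1 in the hPARG dishes. Adgre5 was above Adgrd1 in 6 of 6 dishes, and the remaining genes were too near the floor to be ordered. Adgra2 made up 42.7% to 45.4% of the summed TPM of the 10 genes in a dish, and Adgra3 26.7% to 31.5%. The share of Adgrg1 was 0.405% to 0.427% in control and 2.47% to 3.33% in hPARG cells.

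**Figure D1:**
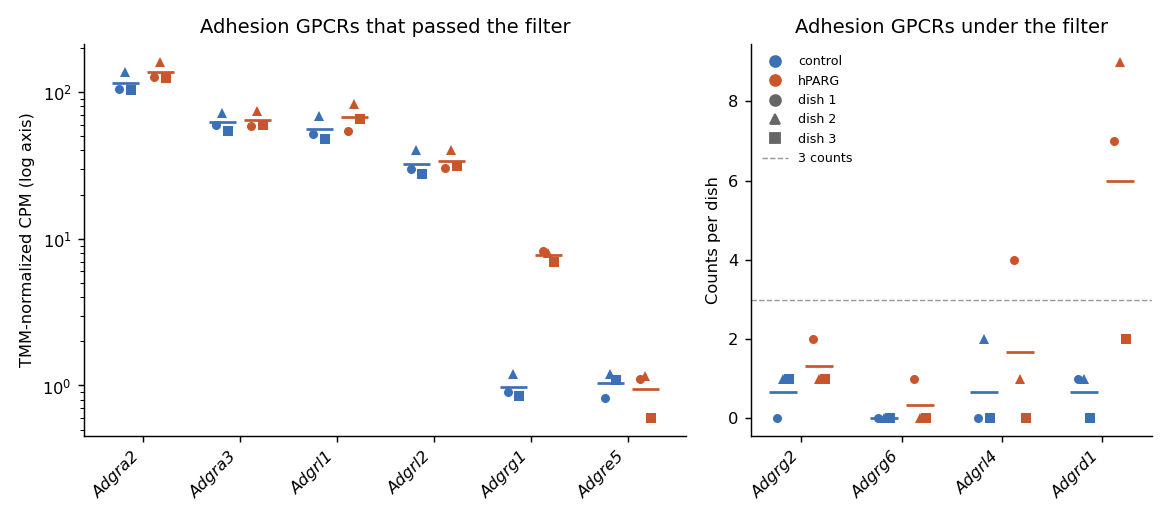
Levels of the 10 adhesion GPCR genes in each dish, as TMM-normalized CPM on a log axis for the 6 genes that passed the filter (left) and as counts for the 4 that did not (right). Horizontal bars are group means of 3 dishes, marker shapes are the dish numbers and the dashed line is the floor of 3 counts. Adgrg1 lies between 0.848 and 1.20 CPM in control and between 6.97 and 8.30 CPM in hPARG dishes.

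Adgrg1 was read 23, 28 and 18 times in control dishes 1 to 3 and 181, 193 and 152 times in hPARG dishes 1 to 3. In CPM these are 0.898, 1.20 and 0.848 in control and 8.30, 7.95 and 6.97 in hPARG cells. The lowest hPARG dish stood above the highest control dish, and Adgrg1 was the sole one of the 6 tested members without overlap, beside 9.62% of all tested genes. The group means were 0.984 ± 0.193 and 7.74 ± 0.687 CPM (SD, n = 3). The fitted log2 fold change was 2.97, with a standard error of 0.196, or 7.83-fold. In bulk RNA, more cells with a transcript and more transcript per cell cannot be told apart. Per length, the level went from 0.435 ± 0.129 to 3.26 ± 0.52 TPM (SD, n = 3). Among the 11509 genes that passed the filter, Adgrg1 was higher in TPM than 3.64% in control and than 16.5% in hPARG cells, so it remained among the low-expressed genes in both groups. Without both dishes numbered 2 the log2 fold change was 3.12.

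Adgrg1 was past the threshold (edgeR's quasi-likelihood test, FDR under 0.05 over all tested genes and more than 2-fold), and the other 5 tested members were not. Of all 11509 tested genes, 10 were past it (0.0869%), of which 1 was higher in hPARG cells (0.00869%). By DESeq2, 1 of the 6 members was past the same threshold, beside 0.191% of all genes it tested. With the replicate number as a block, 2 of the 6 (Adgrg1 and Adgra2) passed the FDR threshold at any fold, beside 2.87% of all tested genes, and 1 of the 2 was also past 2-fold, beside 0.2%. Because the set was chosen with this contrast known, nothing is read from these counts. The median log2 fold change of the 6 tested members was 0.16, against 0.00 for all tested genes, and 5 of the 6 values were positive.

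The other G-subfamily members were near the floor of detection. Adgrg2 (chromosome X, 160390690 to 160498070), known as an epididymal receptor, had 0, 1 and 1 counts in control and 2, 1 and 1 in hPARG cells. Adgrg6 (chromosome 10, 14402583 to 14545659), which binds collagen IV and laminin and is needed for myelination by Schwann cells, had 1 count in hPARG dish 1 and 0 in the other 5 dishes. At this depth no difference between the groups could be detected for either gene. Adgrg1 was thus the sole one of these 3 with more than 3 counts in any dish.

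Adgra2 and Adgra3 were the most strongly expressed of the 10 genes. Adgra2 (GPR124; ENSMUSG00000031486, chromosome 8, 27085583 to 27123436), a co-activator of Wnt7 signalling with Reck, had 2689, 3167 and 2200 counts in control and 2751, 3902 and 2719 in hPARG dishes. In CPM these were 105, 136 and 104 against 126, 161 and 125, so the control dish numbered 2 lay above 2 of the 3 hPARG dishes. The means were 115 ± 18.4 and 137 ± 20.4 CPM (SD, n = 3). Their log2 fold change of 0.26 had a standard error of 0.153, and it was 0.27 without both dishes numbered 2. Exons of Brf2 on the other strand cover 1.26% of the exon bases of Adgra2. Adgra3 (GPR125; ENSMUSG00000029090, chromosome 5, 49959956 to 50059006), its closest relative in the set, had 1537, 1664 and 1159 counts in control and 1291, 1808 and 1308 in hPARG dishes. Its CPM of 60.0, 71.6 and 54.6 in control overlapped widely with the 59.2, 74.5 and 60.0 of hPARG cells, and the groups still overlapped without the dishes numbered 2. The log2 fold change was 0.06 (standard error 0.142), smaller than its error, and it turned negative in the fits that dropped control dish 3 (-0.03) or hPARG dish 2 (-0.06).

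The latrophilins Adgrl1 and Adgrl2, receptors that bind teneurins and FLRT proteins on opposing cells, were present at moderate levels. Adgrl1 (ENSMUSG00000013033, chromosome 8, 83900105 to 83941954) had 1317, 1605 and 1022 counts in control and 1179, 2020 and 1438 in hPARG dishes. Its CPM was 51.4, 69.0 and 48.2 in control and 54.0, 83.2 and 66.0 in hPARG cells, which overlap. Its log2 fold change of 0.27 had a standard error of 0.194 and was also 0.27 without both dishes numbered 2. Of the exon bases of Adgrl1, 15.6% lie in exons of genes on the other strand, and since the use of strand in counting is not stated, reads there cannot be assigned with certainty. Adgrl2 (ENSMUSG00000028184, chromosome 3, 148815583 to 148990555) had 761, 940 and 584 counts in control and 663, 976 and 688 in hPARG dishes. In CPM these were 29.7, 40.4 and 27.5 against 30.4, 40.2 and 31.6, and both groups spanned nearly the same range. Its means of 32.6 ± 6.91 and 34.1 ± 5.37 CPM (SD, n = 3) gave a log2 fold change of 0.07 (standard error 0.177), which turned negative without control dish 3 (-0.04) or hPARG dish 2 (-0.07). Adgrl4 (chromosome 3, 151437887 to 151545086), a receptor of endothelial cells, had 0, 2 and 0 counts in control and 4, 1 and 0 in hPARG cells, at the floor in 5 of 6 dishes. The endothelial marker Pecam1 had 3 counts or fewer in every dish.

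Adgre5 (CD97; ENSMUSG00000002885, chromosome 8, 83723251 to 83741326), an adhesion GPCR of leukocytes that also occurs in other cells, had 21, 28 and 23 counts in control and 24, 28 and 13 in hPARG dishes. Its CPM was 0.82, 1.20 and 1.08 against 1.10, 1.15 and 0.596, and hPARG dish 3 was the lowest of all. With a standard error of 0.342, the log2 fold change of -0.11 was within its error, and it became positive without control dish 2 (0.01) or hPARG dish 3 (0.13). Exons of Ddx39 on the other strand cover 23.8% of the exon bases of Adgre5, so part of these few reads may belong to that gene.

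Adgrd1 (GPR133; ENSMUSG00000044017, chromosome 5, 129096750 to 129204599), a receptor coupled to Gαs, did not pass the filter. It had 1, 1 and 0 counts in control and 7, 9 and 2 in hPARG dishes. The groups did not overlap, although hPARG dish 3 was itself under the floor of 3 counts. Among tested genes 9.62% did not overlap in either direction and 3.61% upwards. No such share was taken over genes under the filter. Summed over dishes, Adgrd1 had 2 against 18 counts, a ratio of 9.29 after scaling by library size, given as a description only. This value was picked out after the counts were seen, and it rests on 20 reads in all. Its level of 0.113 ± 0.0708 TPM in hPARG cells (SD, n = 3) was a small fraction of that of Adgrg1.

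**Figure D2:**
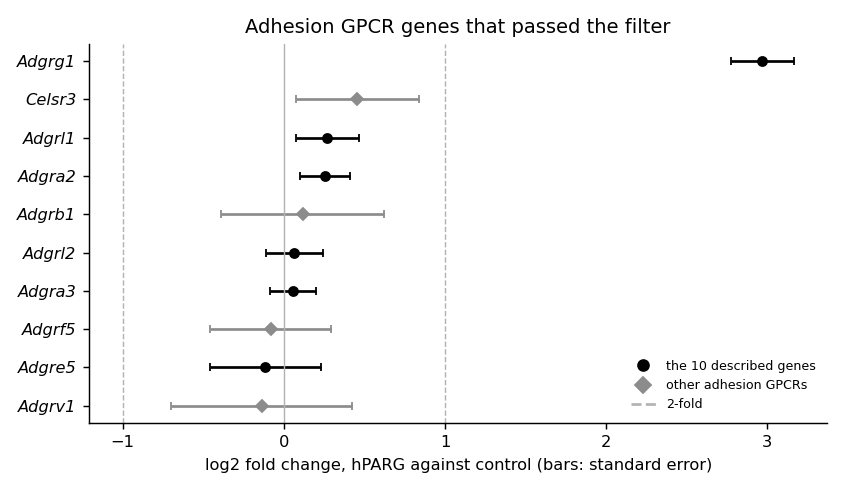
Log2 fold changes of hPARG against control with standard errors for the adhesion GPCR genes that passed the filter (black circles, 6 of the 10 described genes; grey diamonds, 4 other family members). Adgrg1 lies at 2.97 and the other 9 genes lie between -0.14 and 0.45, inside the dashed lines that mark 2-fold.

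The remaining adhesion GPCR genes of the mouse were counted from a list of 20. Of these 20, 4 had no read in any dish and 4 passed the filter (Adgrb1, Adgrf5, Adgrv1 and Celsr3). None of these 4 was past the threshold by edgeR (lowest FDR = 0.999), 0 had an unadjusted p under 0.05 and 0 were called by DESeq2. Their log2 fold changes lay between -0.14 and 0.45, and the lowest and highest bounds of their 95% intervals were -1.44 and 1.34. The interval of Adgrf5, -0.95 to 0.78, was short of 2-fold in either direction, and that of Celsr3, -0.43 to 1.34, reached 2-fold upwards only. Adgrf5, a receptor of lung and endothelium, was read 21, 36 and 26 times in control and 27, 35 and 15 times in hPARG dishes, with hPARG dish 3 the lowest and control dish 2 the highest.

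The spread between dishes had a shared component in the 4 well-expressed members. Within the control group, dish 2 was the highest dish for each of the 6 tested members, with deviations from the group mean between 0.21 (Adgra3) and 0.33 (Adgrl2) on the log2 CPM scale. Within the hPARG group it was the highest for 5 of 6, with deviations of 0.21 to 0.32 for these 5. Adgrg1 was the exception in hPARG cells, where dish 1 was highest (0.10) and dish 2 followed (0.04). Over all tested genes, dish 2 was the highest in both groups for 35.0% (4033 genes). These deviations have about the size of the log2 fold changes of Adgra2 and Adgrl1, but for both genes they occurred in both groups. Dish 2 lay at 0.26 in control and 0.24 in hPARG cells for Adgra2, and at 0.31 and 0.32 for Adgrl1. Without both dishes numbered 2 the log2 fold change was 0.27 for each gene.

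**Figure D3:**
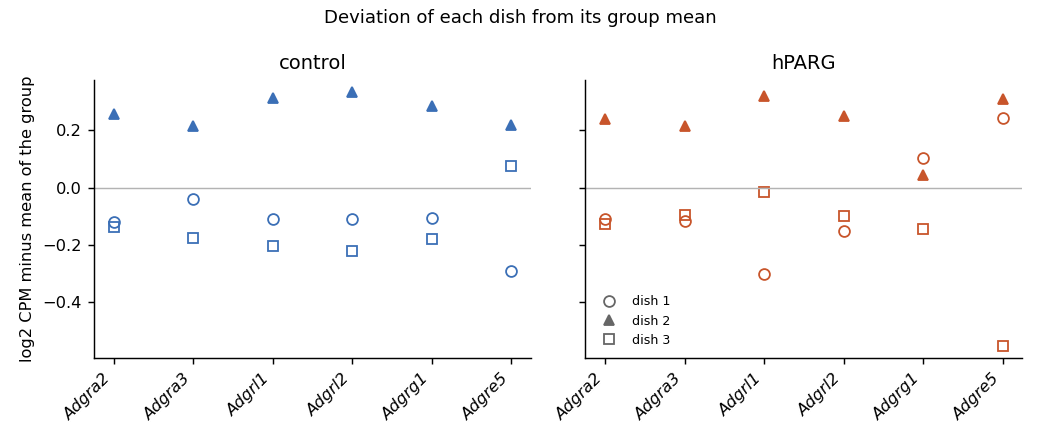
Log2 CPM of each dish minus the mean of its group for the 6 tested adhesion GPCR genes (left, control; right, hPARG). Filled triangles are the dishes numbered 2, which lie at 0.21 to 0.33 in control and at 0.04 (Adgrg1) to 0.32 in hPARG cells.

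No tested neighbour of Adgrg1 on chromosome 8 came near its difference, and the highest upper bound among their 95% intervals was 0.66 on the log2 scale. Adgrg1 lies between 2 relatives, Adgrg5, which had 2 counts in control dish 1 and in hPARG dish 2 and none elsewhere, and Adgrg3, which had no read in any dish. Within 200 kb of either end of Adgrg1 there were 18 other genes, of which 9 passed the filter. None of the 9 was past the threshold by edgeR (lowest FDR = 0.999), 0 had an unadjusted p under 0.05 and 0 were called by DESeq2. Ccdc102a, on the side of Adgrg5, had a log2 fold change of 0.02 (95% interval -0.29 to 0.33). Kifc3, a kinesin motor gene on the other side, had -0.03 (-0.35 to 0.30), and Dok4, an adaptor protein, had the highest value at 0.25 (-0.16 to 0.66). Ciapin1, Coq9 and Polr2c, with roles in iron-sulphur cluster assembly, coenzyme Q synthesis and transcription, had -0.10, 0.01 and -0.12.

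The chemokine genes Ccl17 and Cx3cl1, which lie in the same window, had the lowest values. Ccl17 had 29, 17 and 21 counts in control and 13, 9 and 15 in hPARG dishes, with a log2 fold change of -0.79 (95% interval -1.62 to 0.03). Cx3cl1 had 378, 254 and 240 counts in control and 232, 206 and 230 in hPARG dishes, with -0.32 (-0.69 to 0.05). In CPM the groups did not overlap for these 2 of the 9 genes, which is a share of tested genes to be read against 9.62% (1107) of all tested genes. The median log2 fold change of the 9 was -0.10, with 3 of 9 positive.

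**Figure D4:**
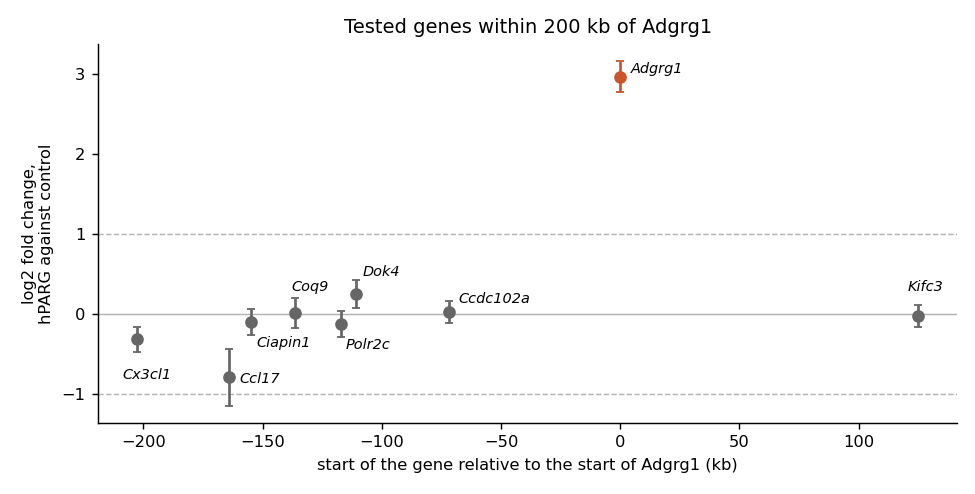
Log2 fold change with standard error of 8 of the 9 tested genes within 200 kb of Adgrg1 (grey) and of Adgrg1 itself (orange), by the distance of the gene's start from that of Adgrg1 in kb. The neighbours lie between -0.79 (Ccl17) and 0.25 (Dok4) and Adgrg1 at 2.97, with dashed lines at 2-fold.

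The extracellular ligands and binding partners of these receptors were mostly expressed, and none passed the threshold. Of 29 listed genes 18 were tested, and edgeR called 0, with a lowest FDR of 0.946. Unadjusted p-values under 0.05 were found for 3 of the 18, beside 3.95% of all tested genes, and DESeq2 called 0. The median log2 fold change was 0.15, with 15 of 18 positive, against 0.00 for all tested genes, and the 95% intervals of the 18 lay within -0.67 and 0.99, short of 2-fold in either direction. Col3a1, which encodes the collagen III bound by Adgrg1, had 1466, 1431 and 1093 counts in control and 1627, 2018 and 1440 in hPARG dishes. Its level was 56.8 ± 5.03 and 74.6 ± 8.55 CPM (SD, n = 3). The log2 fold change of 0.39 (95% interval 0.11 to 0.68) was not called (edgeR FDR = 0.946), and it was 0.37 without both dishes numbered 2.

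Thy1, a ligand of Adgre5 on the cell surface, had 153 ± 7.66 and 189 ± 14.2 CPM (SD, n = 3), with a log2 fold change of 0.30 (edgeR FDR = 0.981). Cd81, a tetraspanin found in a complex with Adgrg1, had 232 ± 13.3 and 262 ± 7.46 CPM (SD, n = 3) and a log2 fold change of 0.17 (edgeR FDR = 0.999). In CPM the hPARG dishes lay above the control dishes without overlap for 4 of the 18 genes, namely Col3a1, Thy1, Cd81 and Prnp, and such a separation upwards was found for 3.61% of all tested genes. Prnp, whose protein contains a ligand of Adgrg6, was named after its values were seen. Itgb1, the β1 integrin subunit and the gene of the list with the most reads, had 993 ± 26.4 and 1034 ± 65.6 CPM (SD, n = 3) and a log2 fold change of 0.06 (95% interval -0.18 to 0.30). Col4a1, which encodes the collagen IV bound by Adgrg6, had 0.15 (-0.35 to 0.65).

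Several partners had few reads or none, and these are also named after their values were seen. Tgm2, the transglutaminase that binds Adgrg1, had 7, 6 and 5 counts in control and 7, 6 and 4 in hPARG dishes. Cd55, the complement regulator bound by Adgre5, and Wnt7b had no read in any dish, and Wnt7a had 1 read in all. Of the teneurin and FLRT genes that encode ligands of latrophilins, Tenm4 and Flrt2 passed the filter and Tenm1, Tenm2, Tenm3, Flrt1 and Flrt3 did not. Tenm4 had 44.2 ± 13.9 and 44.2 ± 15.2 CPM (SD, n = 3) without and with hPARG, and Flrt2 had 76.1 ± 13.5 and 71.1 ± 7.58 CPM (SD, n = 3).

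Genes of G protein signalling and its downstream effectors had no called member. Only their transcript levels were measured, and signalling by the receptors was not. Of 28 listed genes 25 were tested and Gnai1, Adcy3 and Adcy9 had too few reads, and edgeR called 0, with a lowest FDR of 0.927. An unadjusted p under 0.05 was found for 1 of the 25, a share near the 3.95% of all tested genes, and DESeq2 called 0. The median log2 fold change was 0.05, with 18 of 25 positive, and the 95% intervals lay within -0.64 and 0.72. Gna12 and Gna13, which encode the G proteins best known downstream of Adgrg1 and are named outside the rule for named genes, had log2 fold changes of 0.04 (95% interval -0.32 to 0.39) and -0.12 (-0.64 to 0.39). Gnas, which encodes Gαs, had 1213 ± 62.5 and 1220 ± 114 CPM (SD, n = 3) and a log2 fold change of 0.01 (-0.26 to 0.28). Gnb2, a β subunit gene, had a log2 fold change of -0.02 (-0.25 to 0.21), and Rhob, a gene induced by stress and growth factors, had -0.17 (-0.48 to 0.13).

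The single gene of this list under an unadjusted p of 0.05 was Ccn1, a secreted matricellular protein gene and a known target of SRF and YAP signalling. Ccn1 had 14987, 16042 and 14053 counts in control and 17445, 19791 and 18632 in hPARG dishes. Its level was 646 ± 54.5 and 823 ± 28.3 CPM (SD, n = 3) without overlap, and its log2 fold change of 0.35 (95% interval 0.10 to 0.60) was not called (edgeR FDR = 0.927). Ccn2, a second target of the same pathway named here beside Ccn1 after its values were seen, had 6.98 ± 0.747 and 6.96 ± 0.625 CPM (SD, n = 3). Its log2 fold change was 0.00 (-0.33 to 0.33).

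**Figure D5:**
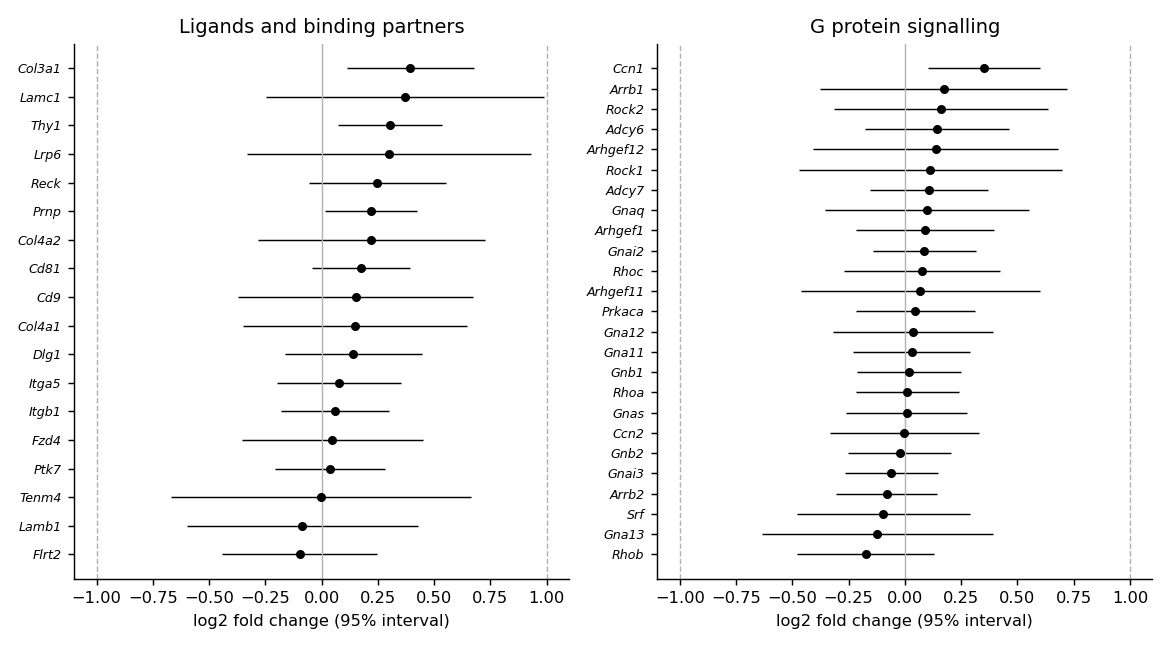
Log2 fold changes of hPARG against control with 95% intervals for the 18 tested ligand and partner genes (left) and the 25 tested G protein signalling genes (right). No interval reaches the dashed lines at 2-fold, and the highest values are those of Col3a1 (0.39) and Ccn1 (0.35).

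The profile of Adgrg1 over the 6 dishes was most like those of Ate1, Caprin2 and Rpl4, with Pearson's r of 0.995, 0.993 and 0.985 in log2 CPM over 6 dishes. All 3 were higher in each hPARG dish than in each control dish, as Adgrg1 was, so the likeness rests mainly on the gap between the groups, and 16 genes had an r over 0.95. Ate1, an arginyl transferase gene, had 34.9 ± 0.699 and 48.7 ± 1.92 CPM (SD, n = 3), or 0.48 as a log2 fold change. These genes were picked by their likeness to Adgrg1, so they are given without a test. The log2 fold changes of Caprin2 and Rpl4 were 0.27 and 0.13, far smaller than that of Adgrg1.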

How the data were processed

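Poly(A) RNA of 6 dishes, 3 per group, was read by the authors in pairs of 150 bp. After adapter trimming, mapping to GRCm38 with Ensembl 96 genes was done by the authors in CLC Genomics Workbench 12.0, allowing up to 10 hits per read, and use of strand is not stated in the sources used here. The authors deposited whole counts per gene without normalization, and TPM values that their software scaled by gene length. The deposited fold changes and p-values of their own comparison were not used.

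Counts were filtered with filterByExpr (minimum count 10, 11509 of 41819 genes kept), TMM-normalized and tested by the quasi-likelihood functions of edgeR 4.0.16 (glmQLFit, glmQLFTest) under R 4.3.3, without a block. Genes were called at a Benjamini-Hochberg FDR under 0.05 and more than 2-fold. Standard errors are the absolute log2 fold change over the square root of F, and 95% intervals use the moderated degrees of freedom. The fit was tested on simulated data. Totals of 21619908 to 25263818 counts and 3 dishes per group set the precision. TPM was used to compare levels between genes and to describe levels, shares and marker sums in each group, and no test was run on it. The table holds no coordinates, so positions, exons and the 200 kb window are from GENCODE M21, which held all identifiers, and the promoter letters are from RefSeq (GRCm38.p6).

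The members, the lists and the rule for named genes were chosen with earlier results of these data known. The rule names the 10 members, called genes of each list, otherwise the 3 genes with the highest mean CPM and the 2 with the smallest p of the ligand and G protein lists, the tested neighbours of Adgrg1 (1 of them is not reported here), and the 3 genes most correlated with it. Alternatives were DESeq2 1.42.0, RLE or library-size scaling, a filter of 10 counts in all dishes or none, the replicate number as a block, and fits without each dish or without both dishes numbered 2.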

Additional observations from a re-analysis of the deposited data

How the results depend on the processing

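Of all tested genes, 10 were called. This number was 22 with DESeq2, 16 with no filter on low counts and 19 without both dishes numbered 2, and it lay between 3 and 13 when 1 dish was left out, with 3 genes without hPARG dish 1 and 5 without hPARG dish 3. With the replicate number as a block it was 23. Same-numbered dishes deviated together with correlations of 0.0963, 0.61 and 0.168, of which the first is under 0.1, so the numbers were not taken as pairs. Correlations of differently numbered dishes ranged from -0.441 to 0.335. Fitting the block lowered edgeR's biological coefficient of variation from 0.148 to 0.0615, so the main fit carries spread that the replicate number takes up. Standard errors fell for Adgra2 (0.153 to 0.0530), Adgra3, Adgrl1 and Adgrl2, and rose for Adgrg1 (0.196 to 0.207) and Adgre5. With this block, 4 of 18 ligand genes and 1 of 25 G protein signalling genes passed the FDR threshold without reaching 2-fold, beside 2.87% of all tested genes. Past 2-fold, the block changed no count of calls among the members or in the 4 other lists.

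Adgrg1 was called under every alternative, with log2 fold changes from 2.88 to 3.14 when 1 dish was left out. Because Adgrg1 was selected on these same counts, its calls describe the settings only and lend its difference no support. When 1 dish was left out, the log2 fold change ran from -0.0726 to 0.25 for Adgrl2, from -0.28 to 0.13 for Adgre5 and from -0.0595 to 0.17 for Adgra3, so these 3 changed sign, whereas Adgrl1 ran from 0.09 to 0.45 and Adgra2 from 0.12 to 0.40. Neither of these 2 nor any gene of the 4 lists was called under any alternative run. The 4 members under the filter were limited by depth, at 20 counts or fewer in all dishes together.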
